A study of Mus musculus with 171 samples.

Results

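Epiblast (EPI) and primitive endoderm (PrE) cells of mouse embryos lacking Stat3 were compared with each other within the same embryos. The cells are the 23 single cells whose titles begin with E3.75 and MUT, out of 171 single cells in the whole series. Of these, 9 carried the EPI label and 14 the PrE label, and they came from 4 embryos numbered 1, 2, 4 and 5. Their genotype label is Stat3 -/-, and the labels name no other allele, no treatment and no strain. Cells of wild-type (WT) embryos of the same stage, 19 labelled EPI and 10 labelled PrE from 3 embryos, were used to see where the lineage difference departs from that in the mutants (MUT). The titles give the stage as E3.75, in days after conception, whereas the source label of the same cells gives an earlier stage and names the inner cell mass. The sources used here do not say how the EPI and PrE labels were assigned. If the submitters assigned them from these counts, the marker differences described below were part of that choice, and every test between the labels shares this limit.

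The inner cell mass of the blastocyst splits into the epiblast, which gives rise to the fetus, and the primitive endoderm, which gives rise to the endoderm of the yolk sac. Epiblast precursors secrete the growth factor FGF4, and primitive endoderm precursors receive it through FGF receptors and the ERK kinase cascade. NANOG marks and sustains the epiblast side, and GATA6 acts upstream of GATA4, SOX17 and SOX7 on the endoderm side. Primitive endoderm cells then build a basement membrane of laminin and type IV collagen and form an absorptive epithelium. STAT3 transmits the signal of LIF and related cytokines and helps to maintain naive pluripotency.

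The measurement was a raw read count per gene and cell, scaled here by the total count of the cell or sum and given as CPM, the usual unit of relative transcript abundance. Single MUT cells held 7616890 to 13447795 counts, and 10496 to 11908 genes were detected in a cell. Cells of 1 embryo are not independent, so counts were summed per embryo and lineage, and the embryo is the replicate (n = 4). An EPI sum holds 2, 1, 3 and 3 cells and a PrE sum 2, 2, 5 and 5 cells in embryos 1, 2, 4 and 5, so the EPI of embryo 2 is a single cell with 10351004 counts. Embryos 1 and 2 carry the letter B in their titles and embryos 4 and 5 the letter A, and the labels leave that letter unexplained. Reads of Y-linked genes were present in all 23 MUT cells, so all 4 MUT embryos were male, against 1 of the 3 WT embryos. Per embryo, the medians over EPI and over PrE cells of total counts, genes detected, mitochondrial mRNA share and ribosomal protein mRNA share differed by less than the larger SD between embryos (exact sign-change test of 4 paired differences, two-sided p = 0.375, 0.75, 1.0 and 0.875; 0.13 is the smallest p that 16 sign changes allow).

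Stat3 itself (chromosome 11, 100885098 to 100939540, build mm10) was low but not absent in the cells labelled Stat3 -/-. In MUT EPI it stood at 28.4, 0.313, 9.02 and 0.0317 CPM in embryos 1, 2, 4 and 5, and in MUT PrE at 10.5, 23.3, 10.6 and 10.4 CPM. WT EPI held 175, 168 and 93.3 CPM and WT PrE 147, 124 and 26.9 CPM in embryos 1, 2 and 3. The WT PrE sum of embryo 3 is a single cell and lay only slightly above the highest PrE value in MUT. It lay below the MUT EPI sum of embryo 1, so the sums of the genotypes overlapped, although MUT and WT sums were scaled separately. Between the MUT lineages Stat3 did not pass the test (log2 fold change of EPI over PrE −3.11, SE 3.01, edgeR adjusted p = 0.819). Which exons these reads cover cannot be seen from counts per gene.

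The lineage labels were checked against 7 EPI, 8 PrE and 6 trophectoderm marker genes in every cell. In MUT EPI cells the EPI markers summed to 963 to 3739 CPM of the cell's own counts and the PrE markers to 24.2 to 441 CPM. In MUT PrE cells the EPI markers summed to 6.60 to 567 CPM and the PrE markers to 1327 to 4969 CPM. The larger sum went with the label in 9 of 9 EPI and 14 of 14 PrE cells, so no MUT cell went against its label. Single markers were less clean than the sums. Nanog was at 220 to 1508 CPM in all 9 EPI cells and at 1.56 to 5.29 CPM in all 14 PrE cells, with no overlap. Gata4 was at 0.966 to 10.9 CPM in EPI cells and at 165 to 790 CPM in PrE cells, again with no overlap. Prdm14, a repressor of differentiation in the naive state, was at 0 in 2 of 9 EPI cells and reached 212 CPM in another. Gata6 was at 0.108 CPM in 1 PrE cell of embryo 2 and at 43.3 CPM or more in all but 1 of the others.

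**Figure D1:**
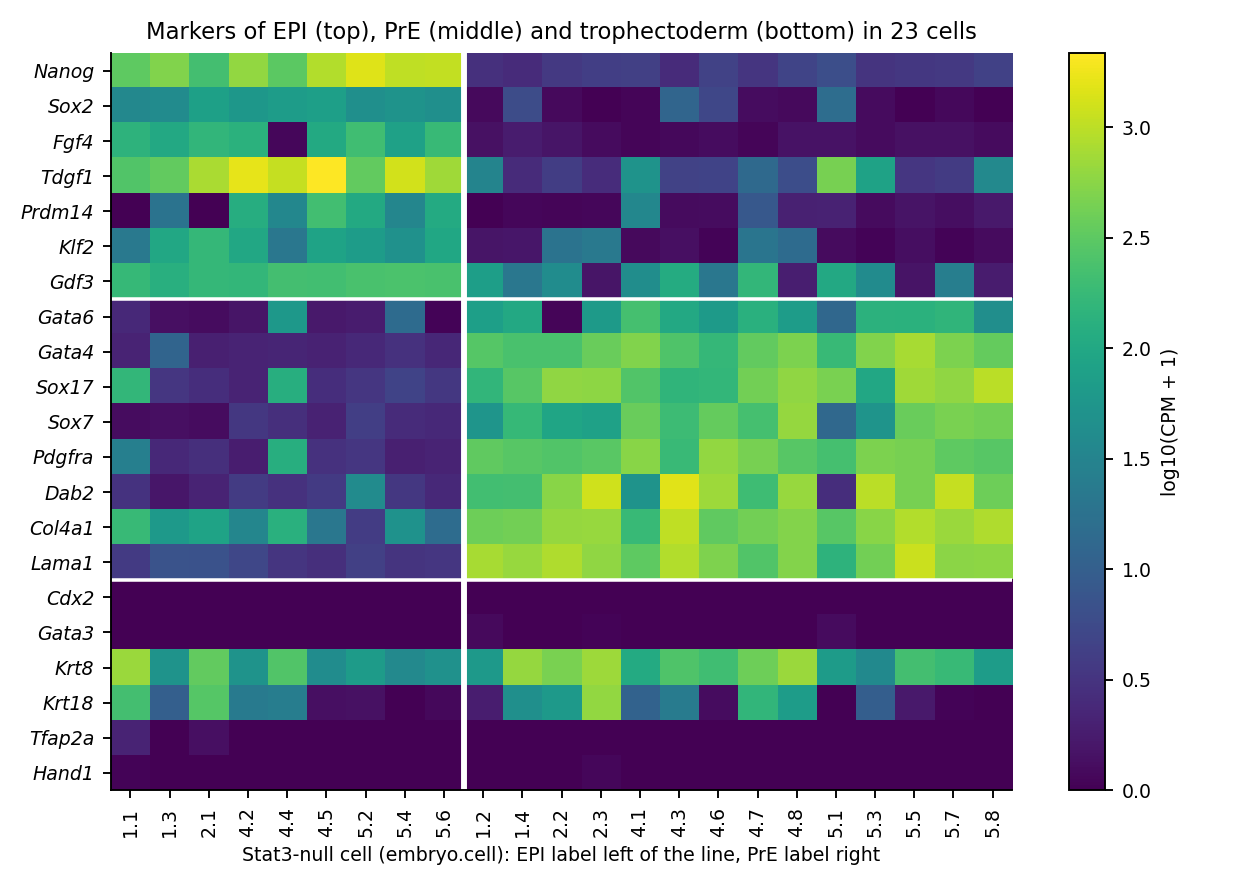
Level of 21 marker genes (rows) in each of the 23 Stat3-null cells (columns, named by embryo and cell number), as the log10 of CPM + 1, with the 9 EPI cells left of the 14 PrE cells. EPI markers are mostly brighter on the left and PrE markers on the right, with exceptions such as Fgf4 in EPI cell 4.4, Sox17 in EPI cell 1.1 and Gata6 in PrE cell 2.2, while Krt8 is present in both lineages and Cdx2 is dark throughout.

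The cells with the least separated markers were 2 EPI cells and 1 PrE cell. EPI cell 1 of embryo 1 held 162 CPM of Sox17 and 174 CPM of Col4a1 beside 324 CPM of Nanog. EPI cell 4 of embryo 4 held 122 CPM of Sox17, 123 CPM of Pdgfra and 59.1 CPM of Gata6, and its Fgf4 level was 0.131 CPM while its Nanog level was 311 CPM. PrE cell 1 of embryo 5 held 442 CPM of Tdgf1 and 14.4 CPM of Sox2, and only 1.70 CPM of Dab2 and 12.1 CPM of Gata6, while its Gata4 level was 173 CPM. These cells thus carried transcripts of both marker sets, and the results were also computed without them. Doublets were not searched for.

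Trophectoderm, the outer layer of the blastocyst, is the other cell type such a sample could hold. Its defining transcription factors were at or near 0 in MUT: Cdx2 had no count in any of the 23 cells, and Gata3, Hand1 and Tfap2a reached at most 0.269, 0.156 and 1.18 CPM. The keratin Krt8 was present in every cell, at 35.8 to 685 CPM in EPI and 37.2 to 709 CPM in PrE. The 6 trophectoderm markers together summed to 35.8 to 906 CPM in EPI and to 46.0 to 1331 CPM in PrE cells. Among the WT PrE cells, cell 7 of embryo 1 stood apart with 9687 CPM of trophectoderm markers, against 101 CPM of EPI and 188 CPM of PrE markers, and the other 2 WT PrE cells of that embryo held 1994 and 1643 CPM of EPI markers, beside 1659 and 1705 CPM of PrE markers. MUT and WT PrE cells are therefore not equally well separated from EPI by these markers, and this is given again where the genotypes are compared.

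Across all genes, 74 of 10698 tested passed the threshold between the lineages in MUT (edgeR quasi-likelihood test with the embryo as a block, Benjamini-Hochberg adjusted p under 0.05), which is 0.692% of genes. EPI was higher for 23 of them (0.215%) and lower for 51 (0.477%). A further view without adjustment gives 1106 genes at p under 0.05, 441 higher and 665 lower in EPI. All 74 called genes had the same direction in 4 of 4 embryos, and their EPI and PrE sums did not overlap. Such separation is not rare among all tested genes: all EPI sums lay above all PrE sums for 4.36% of genes and below them for 5.88%. At the level of single cells, 7 of the 23 higher genes and 26 of the 51 lower genes had no overlap between the 9 EPI and the 14 PrE cells, against 15 and 39 of all 10698 genes tested. The number of calls depends on the test and rests on few embryos. Without the embryo as a block 177 genes were called, and DESeq2 with the block called 1334, including all 74. Without embryo 1, 2, 4 or 5 it was 12, 29, 24 and 4, and with the 2 embryos of letter A alone or of letter B alone it was 0. Dkk1, Lama1 and Timd2 were called in all 4 fits that left out an embryo.

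The called genes are described here in a large and a moderate group, with no absolute log2 fold change between 4.28 and 5.99. This gap holds among called genes only: Gata6, Sox17 and Tdgf1, which were not called, lie within it. For 48 called genes, 13 higher and 35 lower in EPI, the absolute log2 fold change was between 5.99 and 8.77. In these genes the level in the lower lineage was a median of 0.455% of that in the higher lineage, with a range of 0.200% to 3.12%. The other 26, of which 10 were higher and 16 lower, changed by 1.53 to 4.28 on the log2 scale. The level in the lower lineage does not separate the groups cleanly. Aqp3, of these 26, averaged 5.79 CPM in PrE, and Glipr2, of the 48, averaged 19.9 CPM in EPI. All 74 are annotated as protein-coding genes. The median log2 fold change over all tested genes was −0.07. The scaling is built to bring the centre of the genes near 0, so this value does not describe their spread.

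**Figure D2:**
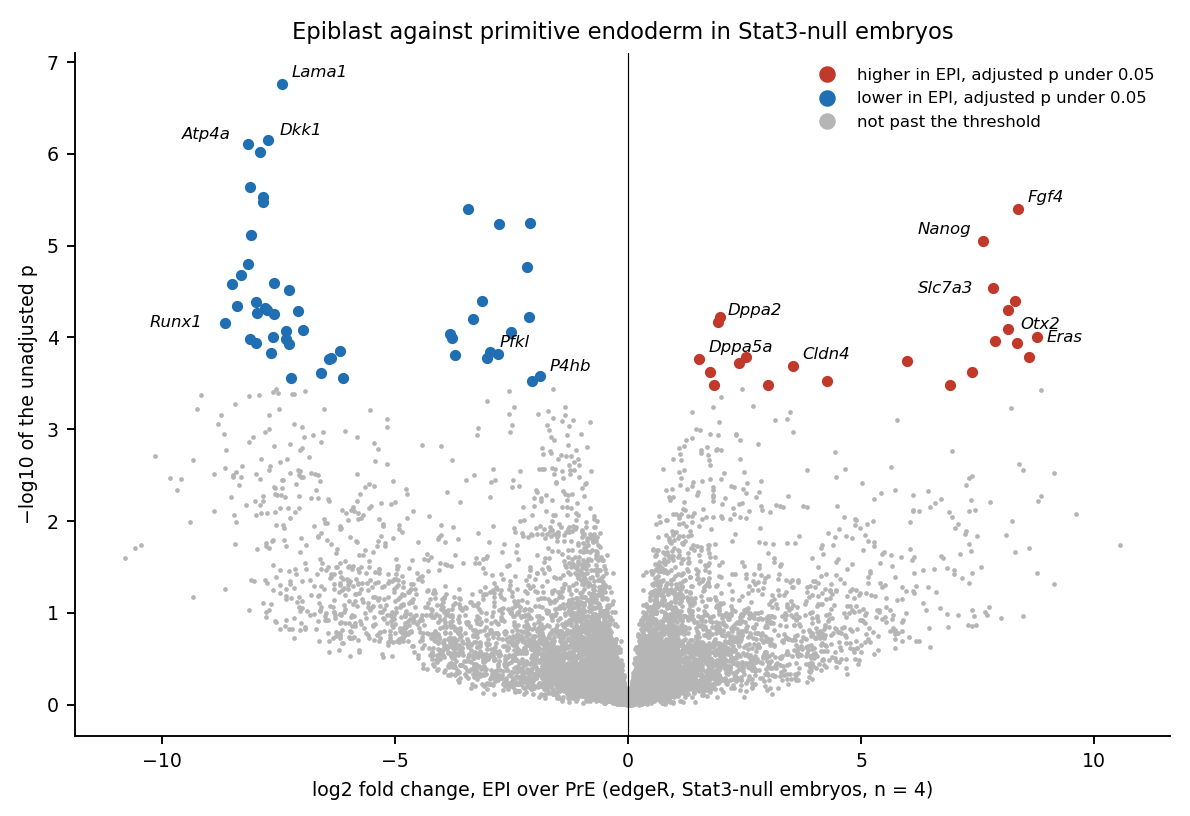
Each point is 1 of the 10698 genes tested between EPI and PrE of 4 Stat3-null embryos, with the log2 fold change of EPI over PrE on the x axis and −log10 of the unadjusted p on the y axis. Red points are the 23 genes called higher and blue points the 51 genes called lower in EPI; the blue points include the smallest p values, led by Lama1.

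On the EPI side, 3 of the 26 naive and epiblast factors listed were called higher, against 0.215% of all tested genes, and none lower. Of the 26, 20 were higher in EPI, and their median log2 fold change was 0.99, against −0.07 over all genes. This and the following lists were chosen with earlier results of these data known, so their counts are descriptive. Nanog (chromosome 6, 122707489 to 122714633), the homeodomain factor of the naive epiblast, stood at 439, 238, 613 and 1066 CPM in EPI and at 1.82, 3.35, 2.77 and 2.89 CPM in PrE of embryos 1, 2, 4 and 5. The lowest EPI embryo lay far above the highest PrE embryo (log2 fold change 7.62, SE 0.53, edgeR adjusted p = 0.00735). The stretch of 250 bases before the RefSeq start of Nanog (GRCm38.p6, chr6:122707239-122707488, plus strand) is shown because it holds the letters bound together by SOX2 and the octamer factor OCT4, both factors of this lineage. Capitals mark the match on the opposite strand to CATTGT, the SOX letters, followed by any base and ATGCAAA, the octamer letters, from 75 to 62 bases before the start.
Nanog: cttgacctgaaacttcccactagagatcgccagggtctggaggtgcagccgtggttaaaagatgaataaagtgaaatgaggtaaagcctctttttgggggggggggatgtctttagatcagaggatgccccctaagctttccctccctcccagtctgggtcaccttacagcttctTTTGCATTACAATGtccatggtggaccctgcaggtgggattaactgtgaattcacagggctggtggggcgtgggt
Both strands of the 250 bases before each start were searched, and 2 of 32851 promoters in the table (0.0061%), both of Nanog, held this motif. Of the called genes with a promoter in the table, 1 of the 15 higher in EPI, Nanog, and 0 of the 40 lower in EPI held it. So long an exact string is rare in itself, and a match describes the letters and is not a binding site.

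Dppa2 and Dppa5a, genes of the developmental pluripotency associated family, were expressed in both lineages and higher in EPI. Dppa2 (chromosome 16, 48303908 to 48319723) stood at 851, 496, 822 and 653 CPM in EPI and at 215, 181, 193 and 146 CPM in PrE. That is a moderate but even difference (log2 1.92, SE 0.19, edgeR adjusted p = 0.021). Dppa5a averaged 8146 ± 644 CPM in EPI and 2869 ± 591 CPM in PrE (SD, n = 4; log2 1.53, SE 0.18, adjusted p = 0.0308). Other factors of the list did not pass the test, although the EPI and PrE sums of Sox2 and Klf2 did not overlap. Sox2, the partner of OCT4, stood at 39.4, 84.8, 63.9 and 42.8 CPM in EPI and at 3.17, 0.105, 3.34 and 2.6 CPM in PrE (log2 4.88, SE 1.28, adjusted p = 0.225). Klf2, a naive Krüppel-like factor, averaged 94.4 ± 56.6 CPM in EPI and 7.4 ± 10.6 CPM in PrE (log2 5.29, SE 1.25, adjusted p = 0.181). Prdm14 stood at 9.47, 0, 126 and 72.3 CPM in EPI, so both embryos of letter B were low, and at 0.0931, 0.157, 8.13 and 0.518 CPM in PrE (adjusted p = 0.528).

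Of 12 formative factors, which mark the later exit from the naive state, only 4 were expressed highly enough to be tested, and 1 of these was called. Otx2 (chromosome 14, 48657677 to 48673819), a homeobox factor of the formative epiblast, stood at 21.6, 41.8, 162 and 92.6 CPM in EPI and at 0.186, 0.105, 0.283 and 0.361 CPM in PrE (log2 8.16, SE 0.78, edgeR adjusted p = 0.0198). Both embryos of letter A were above both of letter B. The median over the 4 tested members was 5.90, but it rests on few genes. A gene high in EPI alone can pass the filter, which favours a large value. With no filter the median was 4.68 over 9 members, and without embryo 2 it was 2.63 over 7.

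The 12 largest fold changes on the EPI side also included genes outside these lists. Eras, a constitutively active RAS family GTPase of embryonic stem cells (chromosome X, 7924276 to 7928607), stood at 55.2, 56.5, 37.8 and 74.0 CPM in EPI and at 0.233, 0.0523, 0.113 and 0.126 CPM in PrE (log2 8.77, SE 0.96, edgeR adjusted p = 0.0248). Slc7a3, a transporter of cationic amino acids, averaged 438 ± 251 CPM in EPI and 2.87 ± 3.56 CPM in PrE (log2 7.83, adjusted p = 0.0163). Spic, an ETS family transcription factor, averaged 65.3 ± 51.8 CPM in EPI and 0.296 ± 0.317 CPM in PrE (log2 8.15, adjusted p = 0.0237). Tnfrsf8, which encodes the surface receptor CD30, averaged 57.5 ± 36.8 CPM in EPI and 0.221 ± 0.237 CPM in PrE (log2 8.34, adjusted p = 0.0255). Spic and Tnfrsf8 ran opposite to Otx2 across embryos: in EPI, Spic was at 76.1 and 134 CPM in the embryos of letter B and at 23.7 and 27.1 CPM in those of letter A. Igfbp2, which binds insulin-like growth factors, averaged 53.8 ± 36.1 CPM in EPI and 0.108 ± 0.0504 CPM in PrE (log2 8.59, adjusted p = 0.0308), although its EPI level in embryo 1 was only 5.62 CPM. Rnf213, a large ubiquitin ligase, was at 288 CPM in the single EPI cell of embryo 2 and at 26.1 to 38.9 CPM in the EPI of the other embryos, against 0.0628 to 0.523 CPM in PrE (log2 8.31, adjusted p = 0.0191). Lrrc2 and 1700019D03Rik complete the 12 largest, with log2 fold changes of 7.88 and 6.91.

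The FGF pathway showed its ligand and its receptor on opposite sides. Fgf4 (chromosome 7, 144847367 to 144865243) stood at 128, 169.8, 85.0 and 135 CPM in EPI and at 0.698, 0.419, 0.208 and 0.33 CPM in PrE (log2 8.37, SE 0.52, edgeR adjusted p = 0.00474). Fgfr2 (chromosome 7, 130162451 to 133123350), an FGF receptor, stood at 0.328, 0.418, 0.101 and 0.0633 CPM in EPI and at 104, 87.3, 86.4 and 15.8 CPM in PrE (log2 −8.38, SE 0.80, adjusted p = 0.0198). The groups did not overlap for either gene, and the PrE of embryo 5 was low for Fgfr2. These were the 2 calls among 12 tested FGF ligands, receptors and adaptors of 18 listed, whose median was −1.54. That median depends on which genes pass the filter: it was −0.28 over 17 members with no filter. Among the 18 tested ERK response genes none was called by edgeR (4 at an unadjusted p under 0.05, 3 higher and 2 lower by DESeq2, 0 by limma-trend), 10 were higher and 8 lower in EPI, and the median was 0.11. The 2 with the smallest p pointed in opposite directions. Etv5, an ETS factor, averaged 461 ± 131 CPM in EPI and 71.5 ± 47.2 CPM in PrE (log2 3.14, SE 1.08, adjusted p = 0.38), and its PrE level in embryo 2 was only 2.2 CPM. Dusp4, a phosphatase that acts on ERK, averaged 38.2 ± 48.5 CPM in EPI and 251 ± 86.0 CPM in PrE (log2 −4.01, SE 1.16, adjusted p = 0.274).

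On the PrE side, 5 of 11 tested transcription factors of primitive endoderm were called lower in EPI and none higher, and all 11 had a negative log2 fold change, with a median of −6.17. Over all 10698 tested genes, 0.477% were called lower and 5710 had a negative log2 fold change. Gata4 (chromosome 14, 63198922 to 63271692), a zinc finger factor of the lineage, stood at 6.42, 1.04, 1.08 and 1.46 CPM in EPI and at 272, 366, 326 and 426 CPM in PrE (log2 −7.59, SE 0.73, edgeR adjusted p = 0.02). Sox7 (chromosome 14, 63943673 to 63950732), an HMG box factor, stood at 0.328, 0.313, 1.72 and 1.74 CPM in EPI and at 131, 98.4, 333 and 243 CPM in PrE (log2 −7.83, SE 0.46, adjusted p = 0.00474). In both lineages its 2 embryos of letter A were above the 2 of letter B. Foxq1, a forkhead factor, averaged 0.298 ± 0.0894 CPM in EPI and 104 ± 45.0 CPM in PrE (log2 −8.29, SE 0.67, adjusted p = 0.0139). Creb3l2, a transmembrane transcription factor of secretory cells, averaged 2.99 ± 4.9 CPM in EPI and 160.1 ± 61.1 CPM in PrE (log2 −7.22, SE 0.93, adjusted p = 0.0429).

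The classical markers Gata6 and Sox17 did not pass. Gata6 stood at 0.937, 0.313, 15.6 and 4.72 CPM in EPI and at 97.0, 43.0, 114 and 89.3 CPM in PrE (log2 −5.16, SE 1.01, edgeR adjusted p = 0.128). Sox17 stood at 85.0, 1.88, 32.2 and 2.63 CPM in EPI and at 252, 687, 294 and 522 CPM in PrE (log2 −5.20, SE 1.61, adjusted p = 0.308). Every EPI embryo was below every PrE embryo for both genes, but the EPI values differed widely among themselves. The 2 high EPI values of Sox17, in embryos 1 and 4, are those of the embryos with the EPI cells of mixed markers named above. Without the 3 cells of mixed markers, 110 genes were called, 35 higher and 75 lower in EPI, and 69 of the 74 were among them. Those cells were picked from these same counts for their mixed markers, so leaving them out favours a larger lineage difference by design.

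**Figure D3:**
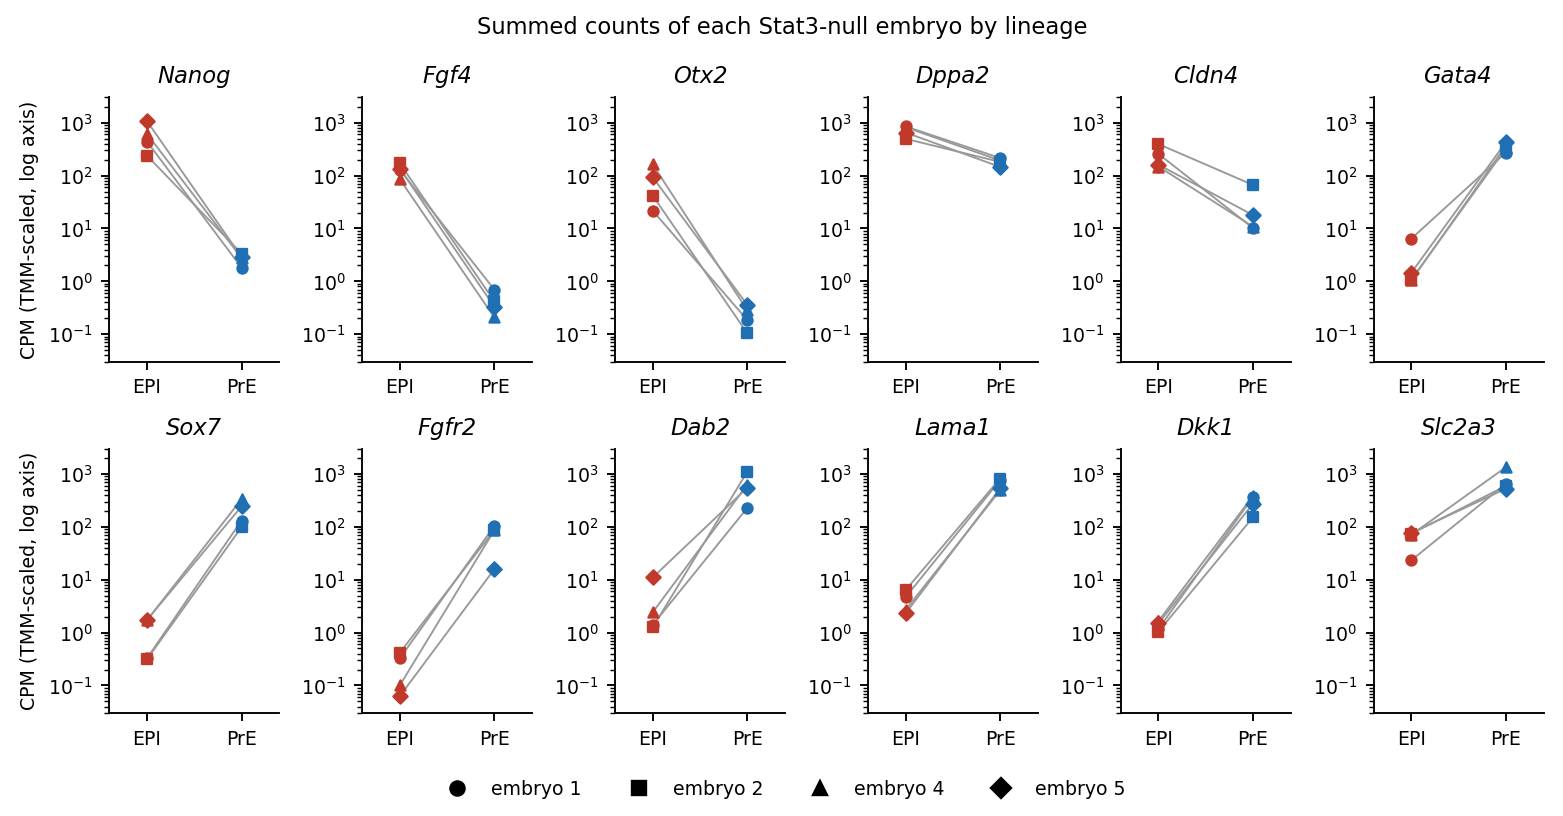
TMM-scaled CPM (log axis, the same in each panel) of 12 genes in the EPI (red, left) and PrE (blue, right) sums of each Stat3-null embryo, with a line joining the sums of 1 embryo and a symbol for each embryo. All lines of a gene run the same way; Fgfr2 is lowest in the PrE of embryo 5 at 15.8 CPM, and Dppa2 differs least.

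Receptors and endocytic genes of the primitive endoderm were also lower in EPI, with 5 of 12 tested members called, against 0.477% of all tested genes. None was called higher, and the median was −5.96. Dab2 (chromosome 15, 6299788 to 6440712), a clathrin adaptor that links receptors to endocytosis, stood at 1.41, 1.25, 2.42 and 11 CPM in EPI and at 227, 1096, 626 and 547 CPM in PrE (log2 −7.61, SE 0.81, edgeR adjusted p = 0.0248). Cubn, the endocytic receptor cubilin, stood at 3.51, 2.3, 3.57 and 24.8 CPM in EPI and at 427, 303, 343 and 292 CPM in PrE (log2 −6.11, SE 0.79, adjusted p = 0.0429). Dab2 and Cubn were both highest among the EPI sums in embryo 5. Aqp8, a water channel, averaged 6.5 ± 8.91 CPM in EPI and 502 ± 186 CPM in PrE (log2 −7.07, SE 0.67, adjusted p = 0.0198). Lrpap1, a chaperone of LDL receptor family proteins, differed moderately (log2 −2.12, adjusted p = 0.0202). Pdgfra, the receptor used to mark the lineage, averaged 12.6 ± 14.6 CPM in EPI and 344 ± 37.7 CPM in PrE and did not pass (log2 −5.81, SE 0.99, adjusted p = 0.0896).

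GATA factors bind short DNA stretches containing GATA. The 250 bases before the RefSeq start of Dab2 (GRCm38.p6, chr15:6299539-6299788, plus strand) are shown because they hold such letters. Dab2 and Gata4 were both called lower in EPI, and whether their levels go together within a lineage was not tested. Capitals mark TGATAA, from 179 to 174 bases before the start.
Dab2: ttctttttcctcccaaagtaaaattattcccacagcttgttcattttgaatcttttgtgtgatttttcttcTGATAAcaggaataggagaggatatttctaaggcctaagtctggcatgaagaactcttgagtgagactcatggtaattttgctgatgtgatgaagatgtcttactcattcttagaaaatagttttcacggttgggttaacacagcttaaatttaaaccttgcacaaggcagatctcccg
AGATAA or TGATAA, searched on both strands, occurred in 5452 of 32851 promoters (16.6%) of the table and before at least 1 start of 18.8% of its genes. Of the called genes with a promoter in the table, 4 of the 40 lower in EPI and 2 of the 15 higher in EPI held them. A match describes the letters and is not a binding site.

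The basement membrane list held 7 calls among 18 tested genes, all lower in EPI, against 0.477% of all tested genes, with a median of −3.07. Lama1 (chromosome 17, 67697259 to 67822647), the laminin α1 chain, stood at 4.69, 6.37, 2.69 and 2.31 CPM in EPI and at 762, 819, 488 and 532 CPM in PrE. It had the smallest p of all genes (log2 −7.42, SE 0.27, edgeR adjusted p = 0.00187). Hspg2, the proteoglycan perlecan, averaged 0.42 ± 0.167 CPM in EPI and 113 ± 51.8 CPM in PrE (log2 −8.08, SE 0.56, adjusted p = 0.00688). Serpinh1, the collagen chaperone HSP47, averaged 2.22 ± 1.43 CPM in EPI and 201 ± 115 CPM in PrE (log2 −6.58, SE 0.83, adjusted p = 0.0393). P4ha1, a prolyl hydroxylase of collagen, stood at 129.6, 54.9, 90.5 and 93.0 CPM in EPI and at 763, 994, 692 and 1154 CPM in PrE, so EPI expressed it at a lower but clear level (log2 −3.32, SE 0.33, adjusted p = 0.0202). Sparc, Col4a2 and P4hb were the remaining calls, with log2 fold changes of −2.76, −3.13 and −1.89. The secreted and lipid transport list had no edgeR call among 11 tested members (5 at an unadjusted p under 0.05, 5 lower by DESeq2, 2 lower by limma-trend) and a median of −1.32. Its member nearest to the threshold was Srgn, the proteoglycan serglycin, at 1.69, 1.36, 1.08 and 24.7 CPM in EPI and at 274, 742, 264 and 451 CPM in PrE (log2 −7.20, SE 1.0, adjusted p = 0.0528). Soat1, which esterifies cholesterol, followed (log2 −5.44, adjusted p = 0.156).

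Among the remaining large differences on the PrE side, several genes are less familiar in this lineage. Runx1 (chromosome 16, 92601466 to 92826149), a transcription factor best known from blood formation, stood at 0.187, 0.104, 0.135 and 0.095 CPM in EPI and at 81.1, 55.0, 38.3 and 44.9 CPM in PrE. It had the most negative log2 fold change among called genes (−8.64, SE 0.89, edgeR adjusted p = 0.021). Atp4a, the catalytic chain of the gastric proton pump, stood at 0.422, 0.522, 0.538 and 1.04 CPM in EPI and at 154, 144, 123 and 302 CPM in PrE (log2 −8.14, SE 0.39, adjusted p = 0.00253). Flrt3, a transmembrane protein that promotes FGF signalling in Xenopus, averaged 1.64 ± 0.752 CPM in EPI and 450.0 ± 139.6 CPM in PrE (log2 −8.11, SE 0.44, adjusted p = 0.00474). Pth1r, the parathyroid hormone receptor of early endoderm, averaged 0.287 ± 0.0778 CPM in EPI and 91.6 ± 52.4 CPM in PrE (log2 −8.15, adjusted p = 0.012). Slc34a2, a phosphate transporter, Stard8, a protein with a lipid-binding domain, and Cgnl1, a junction protein, had log2 fold changes of −7.95, −8.49 and −8.10. Bag2, a cochaperone, and Shtn1, a regulator of neurite growth, both had a log2 fold change of −7.98.

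Calls were few in the other signalling, metabolic and adhesion lists. Over all tested genes 0.692% were called, so a list without a call, here or elsewhere, lies near the overall share. In the WNT pathway, 1 of 16 tested genes was called. Dkk1 (chromosome 19, 30545863 to 30549665), a secreted WNT antagonist, stood at 1.17, 1.04, 1.65 and 1.49 CPM in EPI and at 363, 151, 384 and 275 CPM in PrE (log2 −7.72, SE 0.35, edgeR adjusted p = 0.00253). The list's median was 0.55, with 10 members of higher and 6 of lower value in EPI. None of 16 Nodal pathway genes was called by edgeR (3 at an unadjusted p under 0.05, 2 higher and 1 lower by DESeq2, 2 higher by limma-trend), and their median was 0.29. None of 11 BMP pathway genes was called by edgeR (4 at an unadjusted p under 0.05, 2 higher and 2 lower by DESeq2, 1 higher by limma-trend), and their median was 0.20. Neither median was stable. With no filter they were −0.01 for Nodal and 1.14 for BMP genes. The Nodal median was −0.51 without embryo 2, and the BMP median was −0.43 without embryo 5. Tdgf1, the Nodal co-receptor Cripto, stood at 322, 886, 1617 and 746 CPM in EPI and at 14.3, 2.56, 14.2 and 100.3 CPM in PrE (log2 5.64, SE 1.12, adjusted p = 0.132). Its PrE value in embryo 5 holds the PrE cell with 442 CPM. Gdf3, a ligand of the same family, averaged 185 ± 26.1 CPM in EPI and 40.3 ± 19.9 CPM in PrE (log2 2.32, SE 0.39, adjusted p = 0.0877). Bmp4 averaged 350.5 ± 116 CPM in EPI and 22.6 ± 20.1 CPM in PrE (log2 4.43, SE 0.81, adjusted p = 0.108). Bmp6 had counts in 1 of 9 EPI cells and stood at 5.21 to 16.6 CPM in PrE (adjusted p = 0.162).

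Of 26 tested genes of the LIF and STAT pathway none was called by edgeR between the lineages of embryos lacking Stat3 (4 at an unadjusted p under 0.05, 2 higher and 4 lower by DESeq2, 0 by limma-trend), and the median was −0.22. Socs2, a feedback inhibitor of cytokine receptors, stood at 86.4, 31.1, 151 and 91.6 CPM in EPI and at 16.9, 13.5, 40.8 and 15.6 CPM in PrE (log2 2.0, SE 0.43, edgeR adjusted p = 0.144). EPI had the higher value in 4 of 4 embryos for Socs2.

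Among the lists of energy metabolism, edgeR made calls in glycolysis only. With 0.692% of all tested genes called, lists of 12, 74 and 30 genes can be without a call at the overall share. None of 12 mitochondrially encoded mRNAs was called (0 at an unadjusted p under 0.05, and 0 by DESeq2 or limma-trend), and their median was 0.08. None of 74 nuclear subunits of the respiratory chain was called (3 at an unadjusted p under 0.05, 1 by DESeq2 and 0 by limma-trend), and their median was 0.05. The mitochondrial gene nearest to the threshold, mt-Nd5, averaged 3171 ± 901 CPM in EPI and 2653 ± 1119 CPM in PrE (log2 0.32, SE 0.13, edgeR adjusted p = 0.503), and mt-Nd6, also of complex I, had a log2 fold change of 0.51 (adjusted p = 0.612). Of the nuclear subunits, Sdhd of complex II had the smallest p (log2 −0.87, SE 0.26, adjusted p = 0.28), followed by Uqcrc1 of complex III (log2 −0.46, SE 0.15, adjusted p = 0.352). The 30 genes of the TCA cycle and α-ketoglutarate metabolism had no call with edgeR (8 at an unadjusted p under 0.05, 1 higher and 2 lower by DESeq2, 0 by limma-trend), 23 had a negative log2 fold change, and the median was −0.25. Phgdh, the first enzyme of serine synthesis, stood at 53.3, 36.1, 30.6 and 114 CPM in EPI and at 324, 293, 262 and 258 CPM in PrE (log2 −2.49, SE 0.40, adjusted p = 0.0799). Idh1, which makes α-ketoglutarate in the cytosol, averaged 322 ± 69.5 CPM in EPI and 595 ± 47.1 CPM in PrE (log2 −0.91, adjusted p = 0.15). Glycolysis held 2 edgeR calls among 20 tested genes, both lower in EPI, with a median of −0.35. Slc2a3, the glucose transporter GLUT3, stood at 23.3, 74.0, 70.7 and 76.8 CPM in EPI and at 650.0, 593, 1336 and 525 CPM in PrE (log2 −3.70, SE 0.43, adjusted p = 0.0308). Pfkl, the liver type of phosphofructokinase, stood at 57.7, 42.6, 86.6 and 84.8 CPM in EPI and at 331, 718, 528 and 539.6 CPM in PrE (log2 −2.95, SE 0.34, adjusted p = 0.0302).

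No gene of DNA methylation or imprint protection was called by edgeR among 19 tested (6 at an unadjusted p under 0.05, 4 higher and 2 lower by DESeq2, 1 lower by limma-trend), with a median of 0.36, but the de novo methyltransferases had the smallest p. Dnmt3b stood at 98.8, 78.9, 590.3 and 267 CPM in EPI and at 1963, 1110.2, 1551 and 1089.6 CPM in PrE (log2 −2.89, SE 0.58, edgeR adjusted p = 0.134). Dnmt3a stood at 42.6, 27.6, 384 and 166 CPM in EPI and at 908, 799, 1032 and 932 CPM in PrE (log2 −3.31, SE 0.68, adjusted p = 0.138). For both genes the EPI of the embryos of letter A lay above that of letter B. The PrE values of letter A also lay above those of letter B for Dnmt3a, and those of Dnmt3b overlapped. This split was noticed in the values and was not tested, and each letter holds 2 embryos. Of 80 imprinted genes listed, 36 were tested and 1 was called, and the median was −0.36. That gene was Cobl, an actin nucleator (chromosome 11, 12236608 to 12464960), at 195, 535, 141 and 238 CPM in EPI and 1.26, 0.89, 5.09 and 0.879 CPM in PrE (log2 7.38, SE 0.92, adjusted p = 0.0393).

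In the adhesion and polarity list 1 of 24 genes was called, and the median was −0.16. Cldn4, a claudin of tight junctions, stood at 257, 394, 148 and 160.4 CPM in EPI and at 10.2, 66.5, 10.9 and 17.9 CPM in PrE (log2 3.53, SE 0.43, edgeR adjusted p = 0.0349). Cldn4 is also abundant in trophectoderm, and the EPI sums of embryos 1 and 2, which hold the highest Cldn4, also hold the highest EPI levels of Krt8, at 381 and 371 CPM against 102 and 43.9 CPM in embryos 4 and 5. Krt8 itself had lower values in EPI than in PrE in 4 of 4 embryos and did not pass (log2 −0.98, SE 0.28, adjusted p = 0.268). Its partner keratin Krt18 averaged 109.7 ± 141 CPM in EPI and 130.6 ± 211 CPM in PrE (log2 −0.87, SE 0.93, adjusted p = 0.843). Of 5 tested trophectoderm markers none was called by edgeR (3 at an unadjusted p under 0.05, 3 lower by DESeq2, 0 by limma-trend), and the median was −0.98; Plac1, a placental gene, had the smallest p (log2 −7.40, adjusted p = 0.144).

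The p53, cell cycle and stress lists held no edgeR calls among 16, 27 and 12 tested genes, with medians of 0.49, −0.17 and −0.39. In the same order, 2, 5 and 3 members had an unadjusted p under 0.05, DESeq2 called 1, 1 and 3, and limma-trend called 1, 0 and 0. Trp53, which encodes p53, averaged 288 ± 80.3 CPM in EPI and 102 ± 42.7 CPM in PrE, higher in EPI in 4 of 4 embryos (log2 1.55, SE 0.25, edgeR adjusted p = 0.0848). Its target Bax, which promotes apoptosis, had a log2 fold change of 0.66 (adjusted p = 0.4). Ccna2, a cyclin of S and G2 phase, averaged 248 ± 52.8 CPM in EPI and 373 ± 67.3 CPM in PrE (log2 −0.60, adjusted p = 0.272), and Rrm2, a subunit of ribonucleotide reductase, had a log2 fold change of −0.85 (adjusted p = 0.368). Hspb1, a small heat shock protein, averaged 171 ± 173 CPM in EPI and 411 ± 249 CPM in PrE (log2 −1.95, adjusted p = 0.273). Atf3, a stress-induced transcription factor, averaged 142 ± 129 CPM in EPI and 12 ± 10.9 CPM in PrE (log2 3.67, adjusted p = 0.275).

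**Figure D4:**
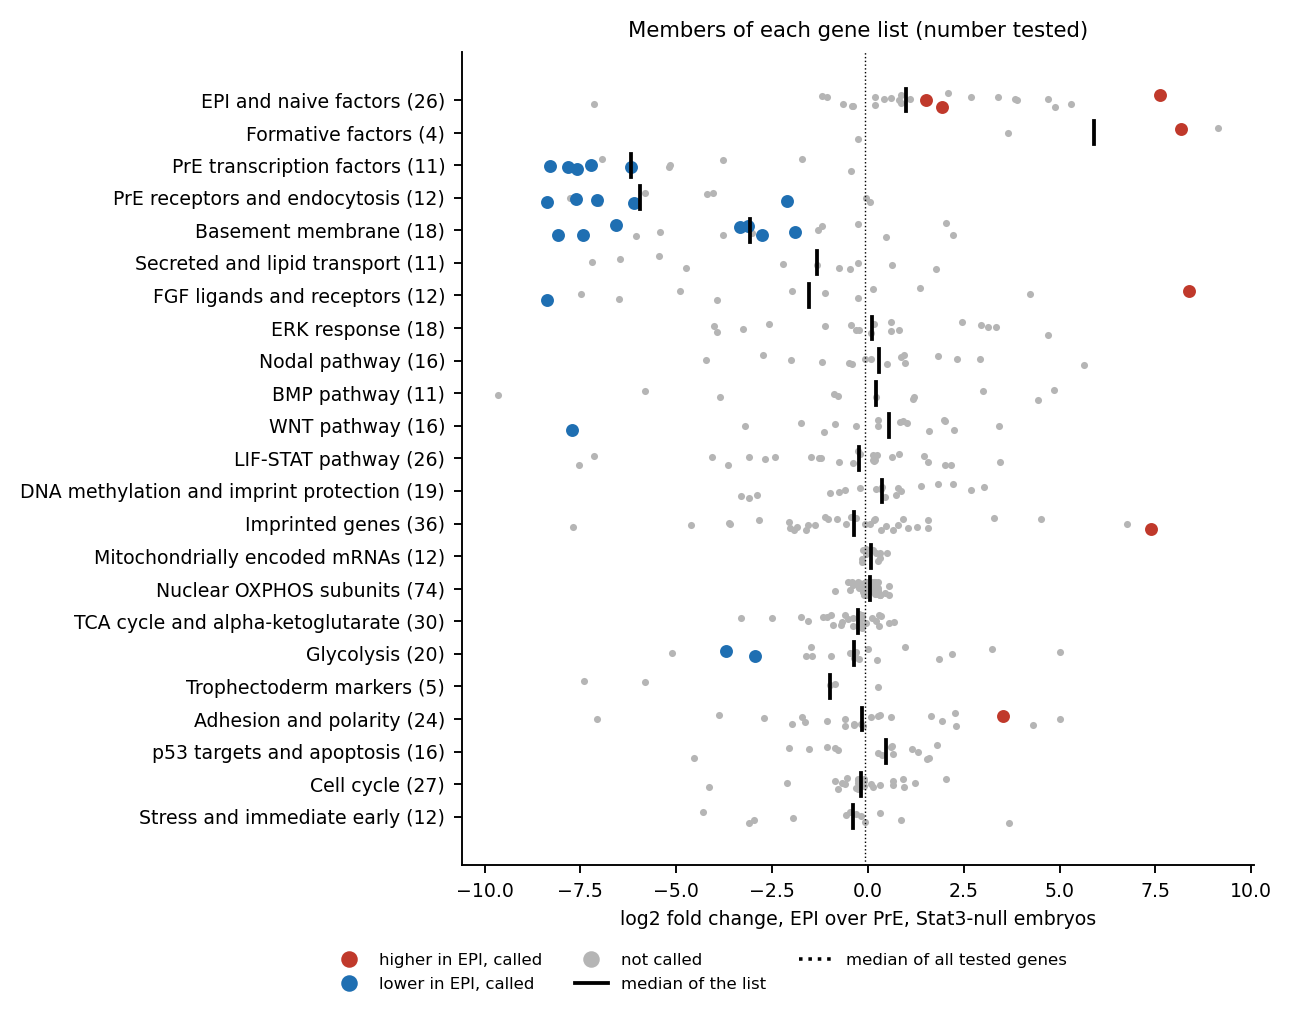
Log2 fold change of EPI over PrE in Stat3-null embryos for the tested members of 23 gene lists, 1 point a gene; red and blue points are called higher and lower in EPI, the black bar is the list's median and the dotted line the median of all tested genes, −0.07. The endoderm lists lie to the left, with medians of −6.17, −5.96 and −3.07, while the points of both respiratory chain lists crowd around 0.

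The same lineage difference was looked up in WT embryos, which share no sample with the mutants. In WT no gene passed the threshold (0 of 12733, 0% of genes; 1069 at an unadjusted p under 0.05 with edgeR, and 1081 called by DESeq2), so genes could be followed only from MUT to WT. Of the 74 genes called in MUT, 72 were tested in WT and 71 had the same direction, 22 of 23 higher and 49 of 49 lower in EPI. The same direction in all 3 WT embryos was found for 64 of the 72 (88.9%), against 26.5% of the 10429 genes tested in both genotypes. Of those 10429 genes, 62.5% had the same direction in the 2 genotypes, and Pearson's r of the log2 fold changes across genes was 0.41, as a description over genes that are not independent. In the 72 genes the median size was 7.24 in MUT and 4.94 in WT on the log2 scale, and 58 were smaller in WT. The genes were chosen for passing in MUT, which favours a larger size there.

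**Figure D5:**
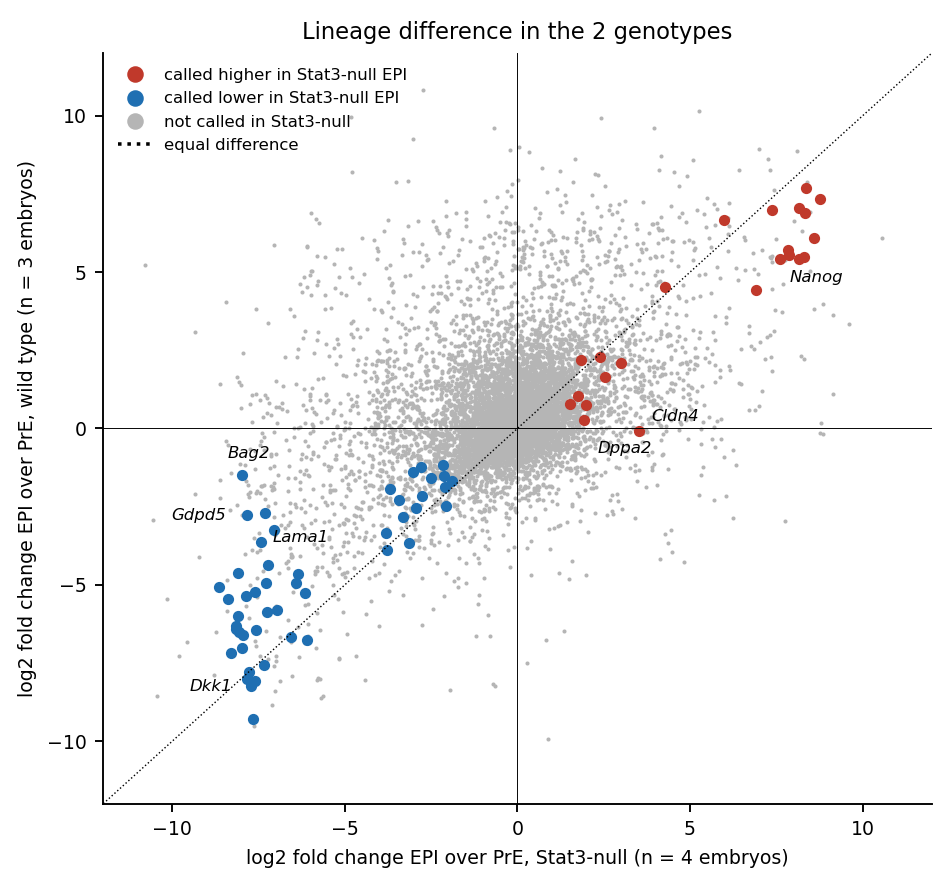
Log2 fold change of EPI over PrE in Stat3-null embryos (x axis, n = 4) against that in wild-type embryos (y axis, n = 3) for 10429 genes, with the 72 genes called in MUT and tested in WT in red (higher in EPI) and blue (lower). 71 of the 72 lie in the quadrants of equal direction and 58 lie nearer to 0 in wild type; Cldn4 lies just below 0 there.

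No gene passed the direct test of whether the lineage difference itself differed between MUT and WT (0 of 14220 genes, 0%; 443 at an unadjusted p under 0.05 with edgeR, and 220 called by DESeq2). The smallest p belonged to Lama1, at 10.3, 84.0 and 19.2 CPM in WT EPI and 137, 677 and 349 CPM in WT PrE. Its lineage difference was −7.42 in MUT and −3.64 in WT, a difference of −3.81 in the joint fit (SE 0.37, edgeR adjusted p = 0.101). The MUT EPI sums of 2.31 to 6.37 CPM lay below all 3 WT EPI sums, with MUT and WT scaled separately. Single cells overlapped: WT EPI cells 1 and 3 of embryo 3 held 5.25 and 2.61 CPM, against 1.83 to 6.15 CPM in MUT EPI cells. Gdpd5, a phosphodiesterase family gene, stood at 0.38 to 0.841 CPM in MUT EPI and 117 to 174 CPM in MUT PrE, against 28.0, 7.15 and 5.81 CPM in WT EPI and 30.4, 102 and 88.1 CPM in WT PrE (difference −5.08, SE 1.06, adjusted p = 1). Dppa2 differed between the lineages by 1.92 in MUT and 0.28 in WT, where EPI held 771, 503 and 541 CPM and PrE 579.9, 348 and 582 CPM (difference 1.62, SE 0.26, adjusted p = 1). Ddah1, an enzyme that degrades inhibitors of nitric oxide synthase, was 0.52 in MUT and −2.93 in WT (difference 3.43, SE 0.64, adjusted p = 1), and Mum1 was −0.57 in MUT and 0.78 in WT (difference −1.37, SE 0.29, adjusted p = 1). Nanog had a lineage difference of 7.62 in MUT and 5.43 in WT (difference 2.15, SE 1.23, adjusted p = 1), with 146, 27.5 and 3.38 CPM in WT PrE. Fgf4 had 8.37 in MUT and 7.68 in WT (difference 0.65, SE 0.57, adjusted p = 1). Over all 14220 genes the median difference was −0.43 on the log2 scale, and single differences are to be read relative to that shift. The shift itself moved with the fit: it was −0.08 with no embryo block, −0.06 with limma-trend, −0.21 without WT embryo 3 and −1.41 with male embryos alone.

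Several measured features of the WT sums move with these genotype values, and their part was not tested. EPI markers summed to 6.60 to 567 CPM in MUT PrE cells and to 18.8 to 1994 CPM in WT PrE cells, so the WT lineages were less separated by markers. The WT PrE sum of embryo 1 includes the cell with 9687 CPM of trophectoderm markers, and its Krt8 and Cldn4 levels of 2571 and 665 CPM were the highest of all sums. Without that cell the difference of Lama1 was −3.67 (edgeR adjusted p = 0.178). Genotype and sex coincide largely, since only WT embryo 3 was male, and its PrE is a single cell. Genotype and title letter coincide largely as well. WT embryos 1 and 2 carry the letter C, which no MUT embryo carries, and WT embryo 3 carries the letter A.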

How the data were processed

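The authors deposited a table of raw counts per gene for 171 single cells; the submitters' processing notes name the aligner STAR, the counter HTSeq and the build mm10. The sources used here give no tool versions, strandedness or library chemistry, so values of overlapping, antisense or near-identical genes are uncertain. All columns had a sample. Names and positions came from GENCODE M21 (49412 of 49671 rows matched; the 259 others held 0.0101% of counts and were kept).

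Counts were summed per embryo and lineage (8 MUT and 6 WT sums, 14 in all; MUT sums from 10351004 to 58367613 counts; CPM values of sums are TMM-scaled, those of cells use the cell's own total). No cell was removed and no pair of cells was identical. edgeR 4.0.16 (R 4.3.3; TMM, filterByExpr with a minimum count of 10, robust quasi-likelihood) was fitted to the 8 MUT sums with the embryo as a block, to the 6 WT sums likewise, and to all 14 for the difference. Adjustment was Benjamini-Hochberg with a threshold of 0.05. The SE is the absolute log2 fold change over the square root of F. The files record no molecular identifiers, so counts may include PCR copies. The pairing comes from the embryo number in the titles, since cells of 1 number were taken to share an embryo; deviations of the EPI and PrE sums of embryos 1, 2, 4 and 5 from their lineage means correlated at 0.07, 0.01, 0.11 and 0.17 over 4248 genes, against at most 0.06, 0.09, 0.06 and 0.05 between that EPI sum and the PrE of another embryo, which is the higher value for embryo 2. The p-values measure the spread between these embryos.

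The members and lists were chosen with earlier results of these data known. Named genes are Stat3, the 12 largest and 12 smallest log2 fold changes among called genes with at least 10 CPM in 1 lineage and 1 direction in 4 embryos, up to 4 called members of each list or else the 2 with the smallest p, the 5 smallest p of the difference, and the markers; Timd2, Sparc, Col4a2, P4hb and Lrpap1 were added after their values were seen, and some genes the rule names are not reported here. Alternatives were no block, DESeq2's size factors (RLE), no filter, DESeq2 1.42.0, limma-trend (limma 3.58.1) on embryo means, each embryo left out, each title letter alone and a shared spread; after seeing the data, fits without the cells of mixed markers, without 1 WT cell and with male embryos alone were added. The edgeR step was tested on simulated data. Exact tests used scipy 1.17.1 (Python 3.11.15).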

Additional observations from a re-analysis of the deposited data

Results flagged for a closer look

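In each lineage the 4 MUT embryos were searched for a value far from those of the other embryos, on the log2 scale of CPM + 1 and over the named genes. Of 120 groups of 4 values, 13 had one; chance flags about 1 in 20 groups. Stat3 stood at 23.3 CPM in PrE of embryo 2, against 10.4 to 10.6 CPM in the other embryos. Stard8 stood at 161 CPM in PrE of embryo 2, against 35.4 to 45.5 CPM in the other embryos. Fgfr2 stood at 15.8 CPM in PrE of embryo 5, against 86.4 to 104 CPM in the other embryos. Rnf213 stood at 288 CPM in EPI of embryo 2, against 26.1 to 38.9 CPM in the other embryos. Creb3l2 stood at 10.3 CPM in EPI of embryo 2, against 0.253 to 0.797 CPM in the other embryos. Aqp8 stood at 19.9 CPM in EPI of embryo 1, against 1.84 to 2.22 CPM in the other embryos. Cubn stood at 24.8 CPM in EPI of embryo 5, against 2.3 to 3.57 CPM in the other embryos. Srgn stood at 24.7 CPM in EPI of embryo 5, against 1.08 to 1.69 CPM in the other embryos. Etv5 stood at 2.2 CPM in PrE of embryo 2, against 82.2 to 106 CPM in the other embryos. Slc2a3 stood at 23.3 CPM in EPI of embryo 1, against 70.7 to 76.8 CPM in the other embryos. Bax stood at 314 CPM in EPI of embryo 2, against 164 to 181 CPM in the other embryos. Klf2 stood at 179 CPM in EPI of embryo 2, against 63.5 to 70.1 CPM in the other embryos. Pdgfra stood at 399.9 CPM in PrE of embryo 4, against 322 to 329 CPM in the other embryos. Embryo 2 is the one in 7 of these. Rnf213, Creb3l2, Bax and Klf2 were flagged in its EPI, which is a single cell. Stat3, Stard8 and Etv5 were flagged in its PrE, a sum of 2 cells. The part of embryo 2 in these values was not tested.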

How the results depend on the processing

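In MUT, 74 genes were called. The fit with no replicate block called 177 (54 higher and 123 lower in EPI; 67 of the 74 among them), so pairing by embryo lowered the count. limma-trend called 160 and DESeq2 1334 (530 higher, 804 lower), while RLE scaling (76), no filter (67), a spread shared over 14 sums (102) and the fit without the 3 cells of mixed markers (110) stayed within 1.5 times. Leaving out 1 embryo gave 4 to 29 calls, and the embryos of letter A alone or letter B alone gave 0; these have fewer samples. In WT, 0 genes were called, 4 with no replicate block and 1081 by DESeq2; leaving out an embryo gave 0. The difference between MUT and WT called 0 genes with edgeR and limma-trend under each alternative run, and 220 with DESeq2 (37 positive, 183 negative). The cause of the DESeq2 counts was not tested.

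The 40 called genes that the naming rule selects kept their direction under the 13 alternatives run, and each lost its call under 2 to 8 of them. Lists without a call in the main test gained some under others; LIF and STAT and Nodal genes, for example, each gained 1 with the shared spread and 1 without the cells of mixed markers. Ddah1, not called, ranged from −0.0049 to 0.81 when an embryo was left out and had −0.058 with letter A alone; Krt18, not called, had 0.30 with limma-trend and 0.75 with letter B alone. For Lama1 the adjusted p of the difference ranged from 2.93e-12 (DESeq2) to 0.974. Each cell held at least 7616890 counts, and with 4 and 3 embryos a gene that varies among embryos can miss the threshold despite a large difference.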
